A study of Mus musculus with 214 samples.

Results

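The hepatic growth hormone (GH) and insulin-like growth factor (IGF) axis was described through 10 genes: the receptors Ghr and Prlr, the hormone Igf1, its circulating partners Igfals and Igfbp3, the binding proteins Igfbp1, Igfbp2 and Igfbp4, and the feedback inhibitors Socs2 and Cish. They were taken by symbol and made up 10 of the 19900 genes listed for either genotype. Each was listed for both genotypes, and each passed the filter on low values (a mean normalized count of at least 5) in all 25 comparisons.

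Livers of C57BL6 mice that all carried RaDR+/+ (a fluorescent reporter of homologous recombination) and GPT+/+ (a transgene for scoring mutations) were profiled by 3′ tag RNA sequencing. Mice without a further change were called WT, and Mgmt-/- mice also lacked the O6-methylguanine repair gene in every cell of the body. Pups received intraperitoneal N-nitrosodimethylamine (NDMA, a methylating carcinogen activated in hepatocytes) at 3.5 mg/kg on postnatal day 8 and 7 mg/kg on postnatal day 15, or saline on both days. Both sexes were sampled at 5 times, counted from the later injection: days 1, 2 and 5 (pups), then week 10 and month 10 (adults). In this order of time the WT groups held 26, 8, 8, 8 and 13 NDMA livers and 21, 8, 7, 8 and 10 saline livers. The Mgmt-/- groups held 12, 8, 8, 8 and 13 NDMA livers and 12, 7, 6, 8 and 12 saline livers. The 209 libraries whose read counts could be recovered held 150038 to 7740710 reads assigned to genes, the median library having 1710016 for WT mice and 2347670 for Mgmt-/- mice. Values are normalized counts, and since each genotype was normalized on its own, levels of the 10 genes were not compared between WT and Mgmt-/- mice.

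The targeted gene was read in both tables as a check of the labels, although they were normalized separately. Mgmt (chr7:136894614-137130266, GRCm38) was at 13.0 to 130.0 (median 45.8) in WT libraries and 0 to 9.67 (median 1.09) in Mgmt-/- libraries. A pair of Mgmt-/- saline day 5 libraries went against their label. They held the kidney gene Kap at 6147 and 7562, against at most 13.9 in the other Mgmt-/- libraries, and their mean over liver genes was 319 and 470 (at least 17201 elsewhere). These libraries were left out of the counts of livers above and, by the rule that chose the data, of every result unless stated. In 2 WT NDMA day 1 libraries the sex-linked genes went against the labelled sex; they were kept, and the WT day 1 calls are also given without them. The hepatocyte markers Alb, Ttr and the other 4 measured of 7 listed summed to 81640.4 to 381319 in the WT libraries used and to 89748 to 427573 in the Mgmt-/- libraries used.

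Growth hormone released by the pituitary binds GHR on hepatocytes, and the kinase JAK2 then activates STAT5, which enters the nucleus and drives genes such as Igf1, Igfals, Socs2 and Cish. IGF1 made by the liver circulates mostly bound to IGFBP3 and to the acid-labile subunit encoded by Igfals, and SOCS2 and CISH dampen signalling at the receptor. In adult rodents the secretion of the hormone is pulsatile in males and more continuous in females, and many liver genes follow that sex difference.

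Promoters were examined for the palindrome TTCNNNGAA, the core of STAT-type sites, which reads the same on both strands. Windows of 300 bases (250 before and 50 from each RefSeq gene start, GRCm38.p6) were at hand for 9 of the 10 genes, 15 windows in all; Socs2 had no entry. Of 32817 such windows across the genome, 8.29% held the palindrome and 0.457% held 2 or more. Counted in the same way, by window, it was found in 4 of the 15 windows. These belonged to 3 of the 9 genes: Cish, which held 2 copies at the gene start, Igfals, with 2 of its 3 windows, and Prlr, with 1 of its 3. The 4 windows, each on the plus strand, are shown because these genes are described below as targets of the pathway or as differing between the sexes; capitals mark the palindrome.
Cish, chr9:107296409-107296708: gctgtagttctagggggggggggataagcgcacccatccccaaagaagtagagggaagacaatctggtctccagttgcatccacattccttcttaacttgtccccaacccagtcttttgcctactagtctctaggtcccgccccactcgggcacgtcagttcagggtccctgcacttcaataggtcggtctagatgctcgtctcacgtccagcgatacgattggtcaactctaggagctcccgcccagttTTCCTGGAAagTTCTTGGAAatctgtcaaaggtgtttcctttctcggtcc
Igfals, chr17:24877594-24877893: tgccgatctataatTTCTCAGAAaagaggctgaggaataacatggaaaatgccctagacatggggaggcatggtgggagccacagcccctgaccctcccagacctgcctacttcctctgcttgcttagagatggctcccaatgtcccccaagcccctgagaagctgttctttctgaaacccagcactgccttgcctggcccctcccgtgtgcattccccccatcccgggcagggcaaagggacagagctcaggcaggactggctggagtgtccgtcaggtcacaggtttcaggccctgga
Igfals, chr17:24877981-24878280: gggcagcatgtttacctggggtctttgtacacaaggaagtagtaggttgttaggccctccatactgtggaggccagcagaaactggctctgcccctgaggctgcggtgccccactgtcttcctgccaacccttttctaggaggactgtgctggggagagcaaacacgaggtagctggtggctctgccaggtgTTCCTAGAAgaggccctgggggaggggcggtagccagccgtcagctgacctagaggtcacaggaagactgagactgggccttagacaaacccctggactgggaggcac
Prlr, chr15:10223656-10223955: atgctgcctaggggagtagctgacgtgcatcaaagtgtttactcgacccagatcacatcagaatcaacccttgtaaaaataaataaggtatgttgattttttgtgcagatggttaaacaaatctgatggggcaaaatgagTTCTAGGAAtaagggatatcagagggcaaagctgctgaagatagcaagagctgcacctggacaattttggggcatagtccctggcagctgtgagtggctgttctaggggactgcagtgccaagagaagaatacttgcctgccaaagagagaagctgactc
A match of these letters is a description of the sequence. The windows of Igf1, Ghr, Igfbp1, Igfbp2, Igfbp3 and Igfbp4 held no match.

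In Mgmt-/- pups NDMA lowered most of the axis at days 1, 2 and 5. A gene was called changed where the adjusted p was below 0.05 and the absolute log2 fold change above 0.58. At day 1, 7 of the 10 genes fell and none rose, against 8.64% of the 10055 genes tested called lower and 17.7% called in either direction. The day 2 livers had 7 lower (7.50% of all genes lower, 19.9% in either direction). On day 5 the count was 7 lower and 1 higher (6.71% of all genes lower, 11.1% higher, 17.8% in either direction). The median log2 fold change of the 10 genes was -0.81, -1.0 and -1.37 at the 3 times, where the median over all genes was 0.02, 0.03 and 0.03. Log2 fold changes are NDMA against saline on the scale of log2(normalized count + 1), from limma with sex and library batch as terms.

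Ghr, the receptor for growth hormone (chr15:3317760-3583492, minus strand), fell at all 3 pup times. At day 1 its normalized count was 95.6 to 242 with median 166 in 12 NDMA livers and 290.4 to 473 with median 342 in 12 saline livers, so the groups did not overlap (log2 fold change -1.19, SE 0.12, adjusted p = 8.21e-10). At day 2 the NDMA livers held 102 to 175 with median 142 and the saline livers 279.5 to 425 with median 368, again without overlap (log2 fold change -1.35, SE 0.12, adjusted p = 3.85e-09). At day 5 the values were 106 to 187 with median 149 and 339 to 443 with median 378 (log2 fold change -1.37, SE 0.13, adjusted p = 9.73e-09). By the means, saline livers held 2.56-fold more Ghr than NDMA livers at day 5, and no NDMA liver reached the lowest saline liver at any of these times.

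Prlr, the prolactin receptor (chr15:10177238-10349180, plus strand), belongs to the same receptor family and in liver is regulated by growth hormone. At day 1 it lay at 75.4 to 266 with median 151 after NDMA and 162 to 546 with median 348 after saline. The groups overlapped at their edges, and the fall passed the test (log2 fold change -1.27, SE 0.16, adjusted p = 6.21e-08). At day 2 NDMA livers held 87.6 to 193 with median 141 against 273 to 538 with median 419 (log2 fold change -1.54, SE 0.15, adjusted p = 2.11e-08). At day 5 the values were 88.7 to 196 with median 147 against 456 to 591 with median 488 (log2 fold change -1.74, SE 0.14, adjusted p = 1.64e-09). At days 2 and 5 every NDMA liver was below every saline liver.

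Igf1, the hormone itself (chr10:87858265-87937042, plus strand), had smaller fold changes than its partners in the circulating complex, Igfals and Igfbp3, and fell at all 3 pup times. Its normalized count at day 1 was 1421 to 2621 with median 1742 after NDMA and 1636 to 4402 with median 2976 after saline. The ranges overlapped, although all 12 NDMA livers lay below the saline median (log2 fold change -0.60, SE 0.13, adjusted p = 0.000528). At day 2 the ranges were apart, 669 to 1969 with median 1700.3 after NDMA and 2163 to 4549.7 with median 3236 after saline (log2 fold change -1.02, SE 0.23, adjusted p = 0.00328). At day 5 they were 1487 to 1816 with median 1668 and 3127 to 4771 with median 3772 (log2 fold change -1.24, SE 0.10, adjusted p = 1.99e-09), a 2.39-fold difference of the means. With the pair of kidney-marked libraries returned to the saline group, the day 5 value was 0.08 (adjusted p = 0.968).

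Igfals encodes the acid-labile subunit that keeps IGF1 in the blood (chr17:24865997-24882010, plus strand). Its normalized count at day 1 was 12.1 to 162 with median 59.1 after NDMA and 63.2 to 428 with median 224 after saline, and the ranges overlapped (log2 fold change -1.59, SE 0.35, adjusted p = 0.00143). At day 2 NDMA livers held 26.0 to 119 with median 87.2 and saline livers 195 to 602 with median 368 (log2 fold change -2.28, SE 0.30, adjusted p = 5.62e-05). By day 5 the ranges were 36.0 to 124 with median 83.6 and 405 to 585 with median 525 (log2 fold change -2.70, SE 0.22, adjusted p = 3.04e-08). Saline livers then held 6.25-fold more Igfals than NDMA livers by the means, and neither day 2 nor day 5 showed overlap.

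Igfbp3, the main IGF carrier of blood, made in liver largely by cells other than hepatocytes (chr11:7206086-7213923, minus strand), fell at each pup time. At day 1 it was 1.72 to 30.0 with median 14.9 after NDMA and 33.9 to 111 with median 54.6 after saline (log2 fold change -2.11, SE 0.25, adjusted p = 3.3e-08). At day 2 the values were 0.875 to 17.8 with median 10.6 and 34.1 to 52.5 with median 41.1 (log2 fold change -2.21, SE 0.36, adjusted p = 9.11e-05). The ranges did not overlap at either time, nor at day 5, when NDMA livers held 3.79 to 15.6 with median 9.64 and saline livers 23.5 to 69.8 with median 35.2 (log2 fold change -1.95, SE 0.28, adjusted p = 1.11e-05). With NDMA values down to 0.875 normalized counts, its day 2 value was -2.31 (adjusted p = 0.00029) with a pseudocount of 0.5 and -1.73 (adjusted p = 7.82e-07) with a pseudocount of 5.

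The remaining binding proteins did not move as a block. Igfbp4, a carrier that withholds IGF from its receptor (chr11:99041244-99054392, plus strand), was 283 to 781 with median 495 after NDMA and 442 to 1211 with median 671 after saline at day 1 (log2 fold change -0.64, SE 0.15, adjusted p = 0.00151). It fell at day 2 as well, 188 to 299 with median 233 against 271 to 701 with median 415 (log2 fold change -0.75, SE 0.15, adjusted p = 0.000584), and was not called at day 5, with a log2 fold change of -0.26 (SE 0.12, adjusted p = 0.126). Igfbp2, a carrier abundant in fetal liver (chr1:72824503-72852474, plus strand), rose at day 5, from 118 to 525 with median 239.5 after saline to 329 to 807 with median 489 after NDMA, with overlapping ranges (log2 fold change 1.10, SE 0.32, adjusted p = 0.0236). At day 1 the Igfbp2 value was -0.54 (SE 0.17, adjusted p = 0.0132), short of the fold threshold, and at day 2 it was -0.03 (SE 0.46, adjusted p = 0.977). Igfbp1, a carrier that insulin suppresses (chr11:7197782-7202546, plus strand), was not called in pups; its day 5 values were 173 to 553 with median 231 after NDMA and 60.0 to 324 with median 152 after saline (log2 fold change 0.83, SE 0.43, adjusted p = 0.203).

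Socs2 and Cish, STAT5-induced inhibitors of the receptor, differed in when they were called, Socs2 at all 3 pup times and Cish at day 5. Socs2 (chr10:95385362-95417180, minus strand) was 6.04 to 54.8 with median 18.4 after NDMA and 21.7 to 75.6 with median 34.1 after saline at day 1 (log2 fold change -0.98, SE 0.23, adjusted p = 0.00116). Its values at day 2 were 3.71 to 22.9 with median 15.0 and 12 to 68.1 with median 24.8 (log2 fold change -0.98, SE 0.34, adjusted p = 0.0379). Day 5 livers held 3.64 to 24.3 with median 12.6 and 4.56 to 79.7 with median 42.4 (log2 fold change -1.47, SE 0.50, adjusted p = 0.0484). The Socs2 ranges overlapped at each time. Cish (chr9:107296026-107302784, plus strand) had log2 fold changes of -0.05 (SE 0.37, adjusted p = 0.951) at day 1 and 0.22 (SE 0.57, adjusted p = 0.827) at day 2. It fell at day 5, to 7.69 to 39.8 with median 14.4 from 10.9 to 91.1 with median 52.7, again with overlap (log2 fold change -1.38, SE 0.41, adjusted p = 0.0233).

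**Figure D1:**
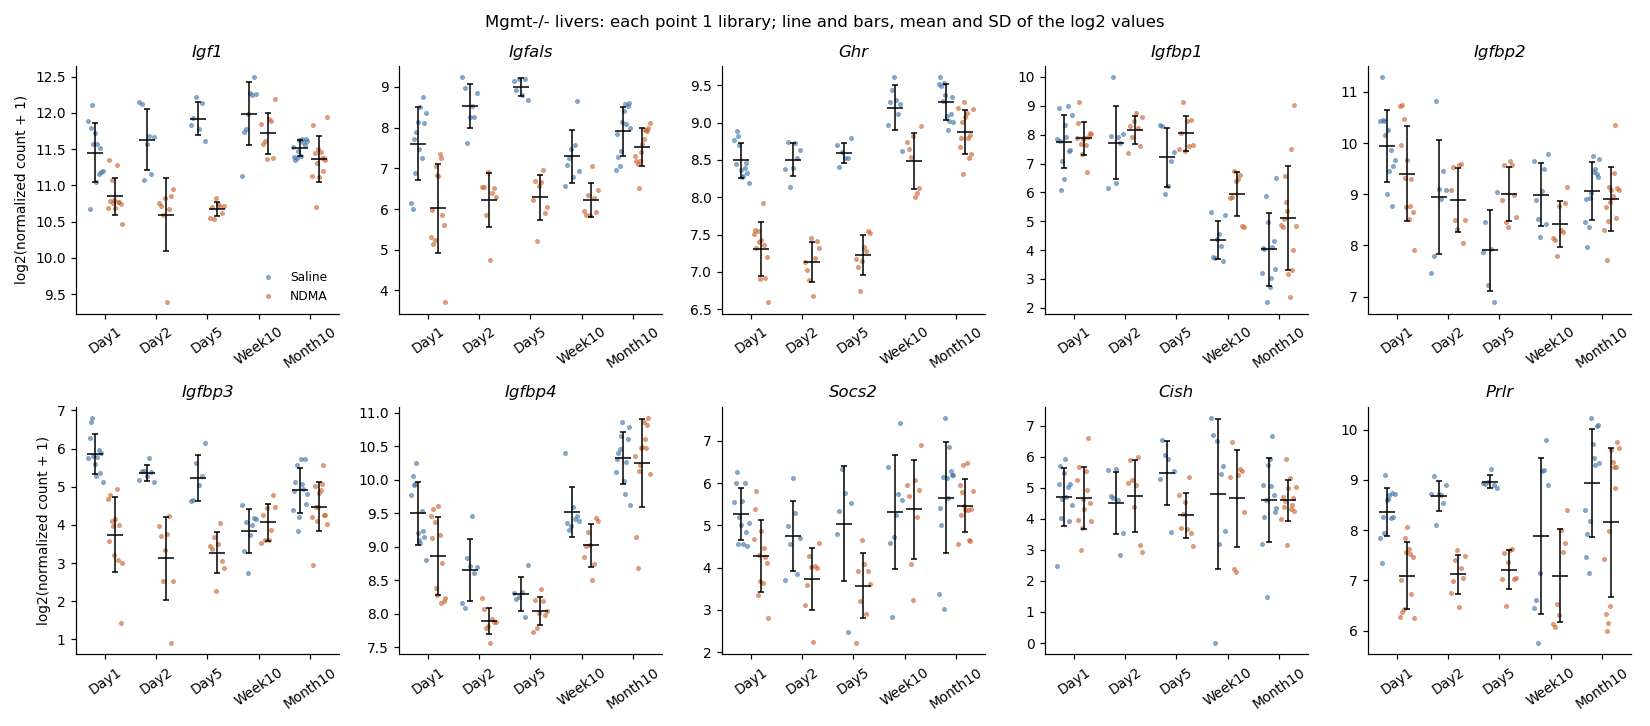
Each panel plots 1 gene in Mgmt-/- livers, with the time after the later dose on the x axis and log2(normalized count + 1) on the y axis; points are libraries of the NDMA and saline groups, and lines with bars are the mean and SD of the log2 values. At days 2 and 5 every NDMA point of Ghr, Igfbp3, Prlr, Igfals and Igf1 lies below the saline points, and at month 10 the groups overlap.

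Day 1 was the pup time with libraries from more than 1 batch in Mgmt-/- mice. The 10 genes had a median NDMA minus saline difference of -0.90 on the log2 scale in batch 191212Eng (8 and 8 livers; 10 of 10 below 0) and -0.72 in batch 200803Eng (4 and 4 livers; 8 of 10 below 0). Within these batches Ghr differed by -1.16 and -1.24, Igfbp3 by -2.12 and -2.09, and Igfals by -1.75 and -1.27. Scaling every library to the same total moved the median of all genes by 0.19, 0.16 and 0.15 at days 1, 2 and 5, and 5, 5 and 7 of the 10 genes were then called; Igf1 and Igfbp4 lost the call at day 1, Igfbp4 and Socs2 at day 2, and Socs2 at day 5.

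Markers of the cells of the liver moved with these results. In bulk tissue, fewer cells of a type and less RNA per cell cannot be told apart. The 6 measured hepatocyte markers, of which Alb was the most abundant, summed to 179166 ± 47588 (SD, n = 12) after NDMA and 283288 ± 65147 (SD, n = 12) after saline at day 1. The sums were 236720.0 ± 23655 (SD, n = 8) and 360930.0 ± 36318 (SD, n = 7) at day 2. They were 257809 ± 17591 (SD, n = 8) and 353541 ± 39577 (SD, n = 6) at day 5. Of the 6, 3, 3 and 1 fell at these times. All 6 recruited macrophage markers were measured. Led by Lyz2, they summed to 844 ± 728 (SD, n = 12) after NDMA and 409.6 ± 212 (SD, n = 12) after saline at day 1. The day 2 sums were 1532 ± 769 (SD, n = 8) and 321 ± 46.2 (SD, n = 7). The day 5 sums were 1058 ± 225 (SD, n = 8) and 364 ± 65.6 (SD, n = 6). Of 5 tested, 3, 5 and 5 rose. Itgax was at 0 in every saline day 5 library. T cell markers, 5 of 6 listed, summed to 46.5 ± 22.6 (SD, n = 12) after NDMA and 21.3 ± 8.97 (SD, n = 12) after saline at day 1. The T cell sums were 99.7 ± 38.3 (SD, n = 8) and 20.9 ± 5.56 (SD, n = 7) at day 2 and 111 ± 28.9 (SD, n = 8) and 18.2 ± 6.08 (SD, n = 6) at day 5. Cholangiocyte markers, led by Spp1, summed to 148 ± 56.5 (SD, n = 12) after NDMA and 231 ± 70.1 (SD, n = 12) after saline at day 1. The cholangiocyte sums were 226 ± 48.2 (SD, n = 8) and 284 ± 53.8 (SD, n = 7) at day 2 and 124 ± 23.4 (SD, n = 8) and 312 ± 40.9 (SD, n = 6) at day 5. Proliferation markers summed to 411 ± 65.2 (SD, n = 12) after NDMA and 352 ± 147 (SD, n = 12) after saline at day 1. The proliferation sums were 556 ± 107 (SD, n = 8) and 289.6 ± 52.1 (SD, n = 7) at day 2 and 314 ± 90.6 (SD, n = 8) and 218 ± 87.4 (SD, n = 6) at day 5. Their part in the fall of the axis was not tested.

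For Igfbp3 the markers of non-parenchymal cells are given beside it. The 6 endothelial markers, led by Clec4g, summed to 325 ± 92.6 (SD, n = 12) after NDMA and 449 ± 82.5 (SD, n = 12) after saline at day 1 (1 higher and 3 lower of 6 tested). At day 2 the endothelial sums were 489 ± 60.8 (SD, n = 8) and 513 ± 43.0 (SD, n = 7) (2 higher and 1 lower of 6 tested). At day 5 they were 442 ± 63.9 (SD, n = 8) and 572 ± 109 (SD, n = 6) (1 higher and 2 lower of 6 tested). The 6 stellate markers, led by Dcn, summed to 633 ± 252 (SD, n = 12) after NDMA and 1001.0 ± 153 (SD, n = 12) after saline at day 1 (0 higher and 4 lower of 6 tested). At day 2 the stellate sums were 855 ± 164 (SD, n = 8) and 1136 ± 184 (SD, n = 7) (0 higher and 3 lower of 6 tested). At day 5 they were 830.4 ± 127 (SD, n = 8) and 1156 ± 144 (SD, n = 6) (0 higher and 3 lower of 6 tested). The 6 Kupffer cell markers summed to 805 ± 283 (SD, n = 12) after NDMA and 882 ± 499 (SD, n = 12) after saline at day 1 (1 higher and 2 lower of 6 tested). At day 2 the Kupffer sums were 1076 ± 313 (SD, n = 8) and 708 ± 201 (SD, n = 7) (3 higher and 0 lower of 6 tested). At day 5 they were 1217 ± 146 (SD, n = 8) and 728 ± 215 (SD, n = 6) (3 higher and 0 lower of 6 tested). Cd5l was the most abundant of them after NDMA and Clec4f after saline. The stellate sums were thus lower after NDMA at all 3 times. The Kupffer sums differed by less than their SD at day 1 and were higher after NDMA at days 2 and 5. No marker of these 3 lists was at 0 in every library of a group, and their part in the Igfbp3 result was not tested.

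Adult Mgmt-/- livers were tested in the same way, and differences between times were not tested. At week 10, 3 fell and 1 rose, where 3.88% of the 9681 genes tested were lower, 7.27% higher and 11.2% called in either direction. Ghr was 256 to 494 with median 386 after NDMA and 392 to 778 with median 614 after saline (log2 fold change -0.71, SE 0.18, adjusted p = 0.00828). Igfals was 56.9 to 133 with median 68.7 and 93.9 to 403 with median 143, and 7 of 8 NDMA livers lay below every saline liver (log2 fold change -1.07, SE 0.23, adjusted p = 0.00254). Prlr ranged widely in both groups, 66.4 to 336 with median 140.3 and 52.9 to 880.5 with median 310.1, and its fall was called with sex as a term (log2 fold change -0.79, SE 0.23, adjusted p = 0.0226) and not without it (adjusted p = 0.507). The gene that rose was Igfbp1, 27.2 to 107 with median 70.0 after NDMA against 11.3 to 38.6 with median 18.2 after saline, with 6 of 8 NDMA livers above every saline liver (log2 fold change 1.60, SE 0.31, adjusted p = 0.000951). With libraries scaled to the same total, which moved the median of all genes by 0.20, Ghr and Prlr were no longer called and Igfals and Igfbp1 still were. Sums of liver cell markers are given for this time as well. The hepatocyte markers, led by Ttr, summed to 134890.0 ± 21240.5 (SD, n = 8) after NDMA and 187096 ± 33758 (SD, n = 8) after saline (0 higher and 1 lower of 6 tested). Those of cholangiocytes, led by Spp1, summed to 957 ± 493 (SD, n = 8) and 150.4 ± 194 (SD, n = 8) (1 higher and 0 lower of 2 tested). A single saline library held 629.9, and without it the saline sum was 81.9 ± 15.7 (SD, n = 7). Recruited macrophage markers, led by Lyz2, summed to 861 ± 140.1 (SD, n = 8) after NDMA and 267 ± 118 (SD, n = 8) after saline (4 higher and 0 lower of 4 tested; Gpnmb at 0 in every saline library). Proliferation markers, led by Top2a, summed to 104 ± 31.1 (SD, n = 8) and 27.6 ± 18.1 (SD, n = 8) (3 higher and 0 lower of 3 tested). Stellate markers, led by Dcn, summed to 675 ± 128 (SD, n = 8) after NDMA and 479 ± 53.5 (SD, n = 8) after saline (1 higher and 0 lower of 6 tested), higher after NDMA where they were lower in pups. Kupffer cell markers, led by Cd5l, summed to 845 ± 131 (SD, n = 8) after NDMA and 561 ± 132 (SD, n = 8) after saline (3 higher and 0 lower of 6 tested). The endothelial sums were 338 ± 21.9 (SD, n = 8) after NDMA and 319.6 ± 59.4 (SD, n = 8) after saline and the T cell sums 19.1 ± 7.19 (SD, n = 8) and 11.6 ± 6.22 (SD, n = 8). Their part in the results at week 10 was not tested.

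Igf1, Igfbp3, Igfbp4, Socs2 and Cish, which fell in pups, were not called at week 10. Igfbp4 was 362 to 685 with median 516 after NDMA and 605 to 1354 with median 670 after saline. Of its 8 NDMA livers, 6 lay below every saline liver. Cish was 3.84 to 87.6 with median 40.6 after NDMA and 0 to 151 with median 46.7 after saline. Igf1 was 2634 to 4652 with median 3401 after NDMA and 2241 to 5759 with median 4452 after saline (log2 fold change -0.27, SE 0.19, adjusted p = 0.422). The log2 fold change of Igfbp3 was 0.23 (SE 0.28, adjusted p = 0.68) and that of Socs2 0.06 (SE 0.47, adjusted p = 0.961). At month 10, 1 gene was called, where 2.99% of all genes were lower and 7.74% called in either direction. It was Prlr, at 62.5 to 864 with median 457 in 13 NDMA livers and 140.0 to 1204 with median 639 in 12 saline livers (log2 fold change -0.68, SE 0.20, adjusted p = 0.0246), and the call was lost without sex as a term (adjusted p = 0.388) and with libraries scaled to the same total (adjusted p = 0.0596). Ghr was 316 to 619 with median 456 after NDMA and 476 to 779.5 with median 635 after saline, a difference that passed the adjusted p and not the fold threshold (log2 fold change -0.40, SE 0.12, adjusted p = 0.0315). At this time the hepatocyte markers summed to 164913 ± 58637 (SD, n = 13) after NDMA and 168643 ± 34592 (SD, n = 12) after saline and the cholangiocyte markers, led by Spp1, to 662 ± 936 (SD, n = 13) and 91.1 ± 29.6 (SD, n = 12). A single NDMA library held 3683, and without it the NDMA sum was 410.5 ± 241 (SD, n = 12). Recruited macrophage markers summed to 381 ± 318 (SD, n = 13) after NDMA and 143 ± 134 (SD, n = 12) after saline, and Kupffer cell markers to 637 ± 375 (SD, n = 13) and 374 ± 218 (SD, n = 12). Proliferation markers summed to 40.3 ± 23.1 (SD, n = 13) after NDMA and 14.4 ± 8.11 (SD, n = 12) after saline, and T cell markers to 10.2 ± 5.74 (SD, n = 13) and 5.04 ± 4.40 (SD, n = 12). The endothelial sums were 261 ± 86.0 (SD, n = 13) after NDMA and 196 ± 35.8 (SD, n = 12) after saline and the stellate sums 554 ± 143 (SD, n = 13) and 604 ± 128 (SD, n = 12). Their part in the results at month 10 was not tested.

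In WT mice 7 of the 10 genes fell at day 1 and none rose, against 4.19% of the 9028 genes tested called lower and 9.19% in either direction. The median of the 10 was -0.72 and that of all genes -0.03. Igfbp3 had the largest fold change of the 10, at 1.49 to 67.9 with median 7.40 in 26 NDMA livers and 13.8 to 63.0 with median 36.5 in 21 saline livers (log2 fold change -2.11, SE 0.22, adjusted p = 8.52e-11). Socs2 was 8.26 to 124 with median 20.0 and 24.1 to 102 with median 52.1 (log2 fold change -1.23, SE 0.19, adjusted p = 1.35e-06), and Cish was 2.98 to 33.1 with median 11.3 and 1.62 to 53.1 with median 25.4 (log2 fold change -0.82, SE 0.22, adjusted p = 0.00546). The ranges of these 3 genes overlapped, and the highest NDMA values of Igfbp3 and Socs2 belonged to the 2 libraries whose sex-linked genes went against the label. Without these libraries the same 7 genes were called, Igfbp3 at -2.27 (adjusted p = 3.37e-14), Socs2 at -1.38 (adjusted p = 3.89e-10) and Cish at -0.91 (adjusted p = 0.00139). Ghr was then at -0.81 (adjusted p = 9.94e-11), Prlr at -0.70 (adjusted p = 1.24e-07), Igfals at -0.85 (adjusted p = 0.00108) and Igfbp2 at -0.70 (adjusted p = 0.0133).

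The receptors fell in WT pups at day 1 as well. Ghr was 76.8 to 357 with median 171 after NDMA and 169 to 365 with median 285 after saline (log2 fold change -0.73, SE 0.10, adjusted p = 2.32e-07). Prlr was 55.6 to 226 with median 155 and 103 to 362 with median 255 (log2 fold change -0.63, SE 0.11, adjusted p = 1.1e-05). Both ranges overlapped. Igfals was 13.1 to 159 with median 89.3 after NDMA, and each of the 26 livers lay below the saline median in a saline range of 35.5 to 284 with median 164 (log2 fold change -0.74, SE 0.21, adjusted p = 0.0098). Igfbp2 was 171 to 2678 with median 480.2 and 281 to 2698 with median 806 (log2 fold change -0.70, SE 0.21, adjusted p = 0.0126). Igf1 itself was 672 to 2821 with median 1759.8 after NDMA and 1218 to 2731 with median 2109 after saline, with 19 of 26 NDMA livers below the saline median, and it was not called (log2 fold change -0.18, SE 0.10, adjusted p = 0.214). Igfbp4, at -0.53 (SE 0.17, adjusted p = 0.0219), and Igfbp1, at -0.32 (SE 0.28, adjusted p = 0.456), completed the 10.

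Markers of other cells moved with the WT results. At day 1 the stellate markers, led by Dcn, summed to 502 ± 166 (SD, n = 26) after NDMA and 764 ± 169 (SD, n = 21) after saline (0 higher and 3 lower of 6 tested). At day 2 they summed to 514 ± 118 (SD, n = 8) and 1047 ± 341 (SD, n = 8) (0 higher and 3 lower of 6 tested). Recruited macrophage markers, led by Lyz2, summed to 403 ± 218 (SD, n = 26) after NDMA and 237 ± 58.0 (SD, n = 21) after saline at day 1 (3 higher and 0 lower of 3 tested). They summed to 461 ± 69.1 (SD, n = 8) and 289 ± 109 (SD, n = 8) at day 2 (2 higher and 0 lower of 3 tested). The endothelial sums, led by Clec4g, were 337 ± 91.9 (SD, n = 26) after NDMA and 419.6 ± 115 (SD, n = 21) after saline at day 1 (0 higher and 1 lower of 6 tested). They were 329 ± 36.1 (SD, n = 8) and 437 ± 68.3 (SD, n = 8) at day 2 (0 higher and 0 lower of 6 tested). The hepatocyte sums were 213421 ± 61834 (SD, n = 26) after NDMA and 245323 ± 43966 (SD, n = 21) after saline at day 1 (0 higher and 0 lower of 6 tested). They were 165923 ± 20908 (SD, n = 8) and 232453 ± 35435 (SD, n = 8) at day 2 (0 higher and 1 lower of 6 tested). T cell sums were 31.2 ± 12.4 (SD, n = 26) after NDMA and 20.3 ± 11.2 (SD, n = 21) after saline at day 1 (1 higher and 0 lower of 2 tested). They were 42.7 ± 7.00 (SD, n = 8) and 21.4 ± 6.76 (SD, n = 8) at day 2 (1 higher and 0 lower of 2 tested). Cholangiocyte sums, led by Spp1, were 319.9 ± 109.7 (SD, n = 26) after NDMA and 198 ± 46.2 (SD, n = 21) after saline at day 1 (1 higher and 0 lower of 2 tested), higher after NDMA where those of Mgmt-/- pups were lower. They were 237 ± 96.4 (SD, n = 8) and 269 ± 103 (SD, n = 8) at day 2 (0 higher and 0 lower of 1 tested). Kupffer cell sums were 947 ± 402 (SD, n = 26) after NDMA and 781 ± 271 (SD, n = 21) after saline at day 1 (2 higher and 0 lower of 6 tested). They were 908 ± 215 (SD, n = 8) and 877 ± 109 (SD, n = 8) at day 2 (1 higher and 2 lower of 6 tested). Proliferation sums, led by Birc5, were 306 ± 102 (SD, n = 26) after NDMA and 289 ± 91.9 (SD, n = 21) after saline at day 1 (0 higher and 0 lower of 5 tested). They were 219 ± 41.8 (SD, n = 8) and 142 ± 59.9 (SD, n = 8) at day 2 (0 higher and 0 lower of 5 tested). No marker of these 8 lists was at 0 in every library of a group. Their part in the fall of Igfbp3 and of the other genes was not tested.

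The WT day 1 livers came in 3 batches, and values are given within each. The median NDMA minus saline difference of the 10 genes was -0.86 in batch 191212Eng (8 and 8 livers; 10 of 10 below 0), -0.70 in batch 210901Eng (12 and 9; 10 of 10 below 0) and -0.25 in batch 200803Eng (6 and 4; 8 of 10 below 0), which held the 2 libraries with mismatched sex genes. Igfbp3 differed by -2.39, -2.42 and -1.03 in the 3 batches. Igfals differed by -1.0, -0.96 and 0.13, so its direction did not hold in batch 200803Eng.

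The later WT groups were smaller, with 16 livers at day 2 against 47 at day 1, and differences between times were not tested. At day 2, 2 genes fell, where 2.91% of all genes were lower and 6.23% called in either direction. All 10 had values below 0, with a median of -0.44 beside -0.08 over all genes. Without the 1 NDMA library of under 300000 reads the calls over all genes rose from 285 higher and 249 lower of 8568 to 461 higher and 410 lower of 8560, and 3 of the 10 were called, Socs2 being the one gained. Igfals was 21.8 to 126 with median 38.5 after NDMA and 42.5 to 155 with median 139 after saline (log2 fold change -1.46, SE 0.33, adjusted p = 0.0101), and Prlr was 117 to 210.4 with median 164 and 182 to 335 with median 279.5 (log2 fold change -0.71, SE 0.14, adjusted p = 0.00388). Neither call was kept by limma without 3 saline libraries whose read counts could not be recovered. The calls over all genes also fell there, to 98 higher and 58 lower of 8563. On the same 13 libraries edgeR called 268 higher and 285 lower over all genes, and DESeq2 295 and 325. With each of these tools the number of the 10 called stayed within 1.5 times that reported. Igf1 stood at 1689.7 to 2197 with median 1868 and 1611 to 2173 with median 1914, with medians close to each other (log2 fold change -0.01, SE 0.11, adjusted p = 0.975). None of the 10 was called by limma at day 5, week 10 or month 10, where 3.61%, 0.0249% and 0% of all genes were called. By limma an unadjusted p below 0.05 was held by 1, 3 and 3 of the 10. Over all genes it was held by 1549 of 8654, 350 of 8048 and 757 of 9254. At day 5 the calls over all genes rose from 192 higher and 120 lower of 8654 to 474 higher and 320 lower of 8644 without the 1 NDMA library of under 300000 reads, and Igfbp2 was then called. DESeq2 called 1 of the 10 at day 5, Igfbp2, and none at the later times, and edgeR called none at the 3 times. The day 5 Igf1 values were 1563 to 3268 with median 2037 after NDMA and 1700.0 to 2763 with median 2093 after saline (log2 fold change -0.04, SE 0.15, adjusted p = 0.927).

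**Figure D2:**
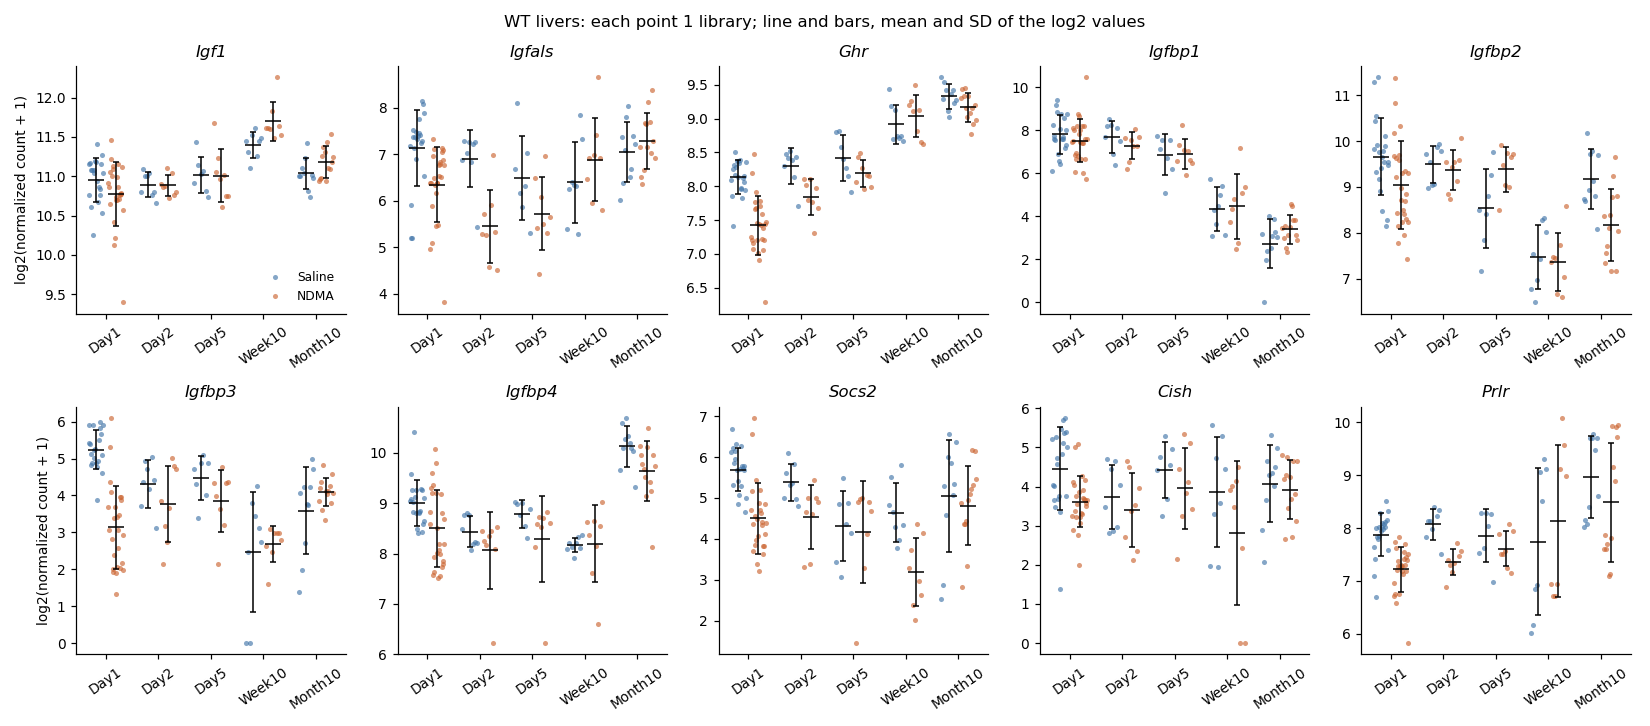
Each panel plots 1 gene in WT livers on the same axes as for Mgmt-/- livers: time after the later dose against log2(normalized count + 1), each point 1 library, lines and bars the mean and SD of the log2 values. NDMA points sit lower at day 1 for Igfbp3, Socs2 and Ghr, and the groups overlap for all 10 genes at every time.

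**Figure D3:**
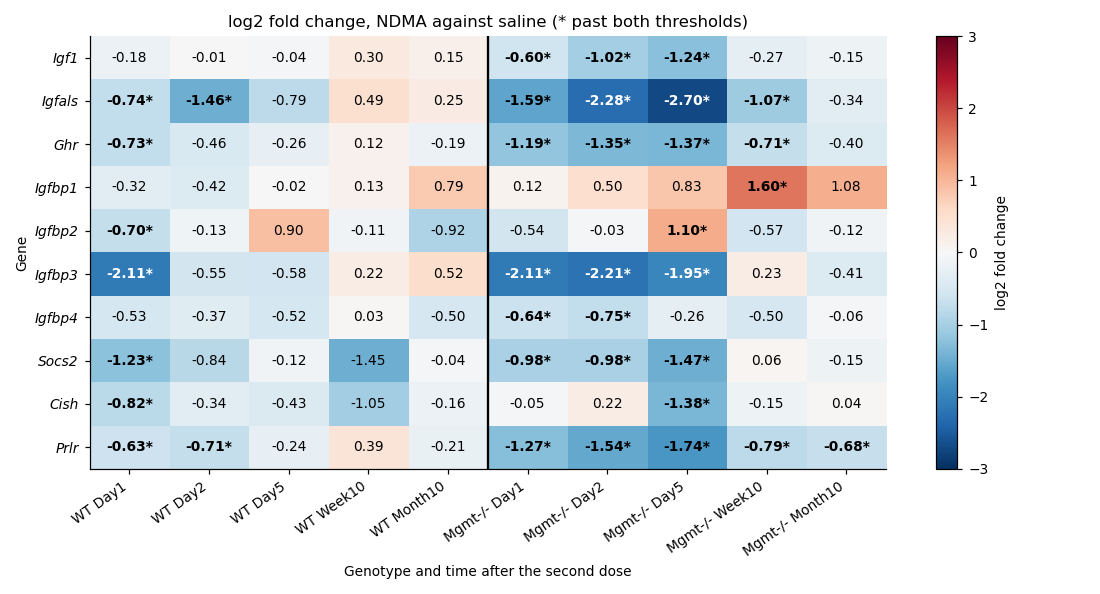
The color of each cell is the log2 fold change of NDMA against saline for a gene (rows) at a genotype and time (columns), and an asterisk marks a gene past both thresholds. The Mgmt-/- columns of days 1, 2 and 5 hold 7, 7 and 8 asterisks, and those of WT hold 7, 2 and 0.

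Whether the response differed between genotypes was tested directly, with edgeR on the recovered reads of both genotypes, where a negative value means a lower NDMA against saline fold in Mgmt-/- than in WT mice and a call is an adjusted p below 0.05. At day 1 none of the 10 genes passed (0.0106% of 9444 genes called), with Ghr at -0.46 (SE 0.17, adjusted p = 0.262) and Igf1 at -0.49 (SE 0.18, adjusted p = 0.277). An unadjusted p below 0.05 was held by 5 of the 10 and by 954 of all 9444 genes. WT and Mgmt-/- livers of day 2, of day 5 and of week 10 were sequenced in separate batches. At those times a difference between genotypes cannot be told apart from one between batches. At day 2, 3 genes differed (1.64% of genes called lower, 4.12% either way). They were Igf1 at -0.97 (SE 0.25, adjusted p = 0.0173), Ghr at -0.87 (SE 0.21, adjusted p = 0.0107) and Prlr at -0.80 (SE 0.24, adjusted p = 0.0411). At day 5, 4 differed (0.926% lower, 2.33% either way), and the hormone, both receptors and the main carrier were among them. The values were -1.23 (SE 0.21, adjusted p = 0.000223) for Igf1, -1.10 (SE 0.19, adjusted p = 0.000354) for Ghr, -1.44 (SE 0.26, adjusted p = 0.000452) for Prlr and -1.63 (SE 0.42, adjusted p = 0.0237) for Igfbp3.

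At week 10, 3 genes differed between the genotypes (2.39% lower, 5.75% either way): Igfals at -1.57 (SE 0.47, adjusted p = 0.0411), Ghr at -0.79 (SE 0.23, adjusted p = 0.0288) and Prlr at -1.19 (SE 0.30, adjusted p = 0.00839). None of the 3 was called without sex and batch as terms. In WT livers at week 10, Igfals was 54.8 to 404 with median 119.8 after NDMA and 38.2 to 229.8 with median 79.1 after saline, and Ghr was 395 to 722 with median 558 and 404 to 692 with median 426. At month 10 none of the 10 passed (1.46% of genes called), and 3 had an unadjusted p below 0.05, as did 1358 of all 9717 genes. A limma fit of both tables joined also called none at day 1 and month 10.

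Saline livers were also compared by age. Adult livers (week 10 and month 10) were compared with pup livers (days 1, 2 and 5) within a genotype, in 1 limma fit over all saline livers with sex and batch as terms. In WT mice 5 of the 10 genes changed, 2 higher and 3 lower, where 22.0% of all genes were higher and 17.6% lower (39.6% in all). In Mgmt-/- mice 2 changed, both lower, where 16.0% were lower and 30.8% called in all. These shares are near those of all genes, so the counts say nothing particular about the axis, and the genes are given singly. Adult Mgmt-/- livers and most of their pup livers were sequenced in different batches, tied together by the 4 saline day 1 livers of batch 200803Eng. Scaling to the same total moved the median of all genes by 0.17 there. Both calls were kept, and 1 gene was then called higher, which made 3 in all.

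Igfbp1 and Igfbp3 fell with age in both genotypes. WT Igfbp1 was 67.7 to 667 with median 202 in day 1 livers, 7.49 to 51.8 with median 19.9 in week 10 livers and 0 to 14.9 with median 7.35 in month 10 livers (log2 fold change -3.72, SE 0.36, adjusted p = 4.63e-12). In Mgmt-/- livers it was 66.9 to 511 with median 223, 11.3 to 38.6 with median 18.2 and 3.56 to 88.7 with median 15.8 (log2 fold change -3.25, SE 0.67, adjusted p = 0.000306). In WT livers both adult ranges lay below the day 1 range, and the week 10 range reached into that of day 5, 33.1 to 211 with median 138. In Mgmt-/- livers the month 10 range reached into the day 1 range. WT Igfbp3 had medians of 36.5, 19.9 and 25.2 at days 1, 2 and 5, and was 0 to 18.2 with median 6.67 at week 10 and 1.60 to 30.5 with median 14.3 at month 10 (log2 fold change -1.69, SE 0.30, adjusted p = 3.95e-06). Mgmt-/- Igfbp3 had medians of 54.6, 41.1 and 35.2 at days 1, 2 and 5, and was 5.66 to 21.9 with median 15.6 at week 10 and 13.4 to 52.4 with median 29.1 at month 10 (log2 fold change -1.81, SE 0.30, adjusted p = 5.92e-06). The Mgmt-/- month 10 range overlapped that of the day 5 pups, 23.5 to 69.8 with median 35.2.

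Both receptors were called higher in WT adults, with the sexes fitted together. Ghr was 169 to 365 with median 285 in day 1 livers, 404 to 692 with median 426 in week 10 livers and 521 to 783 with median 639.8 in month 10 livers (log2 fold change 0.87, SE 0.09, adjusted p = 5.75e-13). Prlr was 103 to 362 with median 255, 63.6 to 635 with median 241 and 259 to 884 with median 551 (log2 fold change 0.72, SE 0.20, adjusted p = 0.00184). By sex its values went apart: in saline females the mean was 257 ± 65.1 (SD, n = 20) in pups and 657 ± 192 (SD, n = 10) in adults. In saline males it was 239 ± 54.8 (SD, n = 16) in pups, 92.1 ± 29.2 (SD, n = 4) at week 10 and 287 ± 34.0 (SD, n = 4) at month 10. The male mean was thus below that of male pups at week 10 and above it at month 10. The age difference within a sex was not tested. In Mgmt-/- mice the Ghr values were 290.4 to 473 with median 342, 392 to 778 with median 614 and 476 to 779.5 with median 635, and the difference did not pass the test (log2 fold change 0.39, SE 0.17, adjusted p = 0.0686). WT Igfbp2 was the third gene called lower in adults (log2 fold change -1.09, SE 0.24, adjusted p = 0.000148). It was 281 to 2698 with median 806 at day 1, 502 to 982 with median 792 at day 2 and 144 to 870.1 with median 363 at day 5, then 88.3 to 319.6 with median 177 at week 10 and 271 to 1163 with median 525 at month 10. The month 10 median was above that of the day 5 pups. Igf1 was 1218 to 2731 with median 2109 at day 1, 2199 to 3122 with median 2795 at week 10 and 1701 to 2736 with median 2068 at month 10 in WT livers, and the adult difference passed the adjusted p and not the fold threshold (log2 fold change 0.31, SE 0.09, adjusted p = 0.00291). Mgmt-/- Igf1 was 1636 to 4402 with median 2976, 2241 to 5759 with median 4452 and 2612 to 3188 with median 2989 (log2 fold change -0.14, SE 0.21, adjusted p = 0.635).

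The age contrast of Igfals in Mgmt-/- livers depended on batch. Its saline mean at day 1 was 280.2 ± 93.3 (SD, n = 8) in batch 191212Eng and 115 ± 67.8 (SD, n = 4) in batch 200803Eng, which also held the adults. With batch as a term the adult minus pup value was 0.43 (SE 0.29, adjusted p = 0.26), without it -0.78 (adjusted p = 0.000507), and within batch 200803Eng 0.87 (adjusted p = 0.00755). No direction with age was therefore assigned to Igfals.

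Within the pup period, 3 of the 10 genes differed between saline day 5 and day 1 in Mgmt-/- mice, 1 higher and 2 lower (2.21% of all genes higher, 3.02% lower, 5.23% in all). Igfals rose (log2 fold change 0.93, SE 0.25, adjusted p = 0.0207), while Igfbp2 (log2 fold change -1.68, SE 0.36, adjusted p = 0.00349) and Igfbp4 (log2 fold change -0.99, SE 0.20, adjusted p = 0.00197) fell. Scaled to the same total, which moved the median of all genes by -0.22, Igfals was no longer called. In WT mice limma, edgeR and DESeq2 each called none of the 10 between these days (0.431% of all genes by limma). By limma 3 had an unadjusted p below 0.05, as did 1016 of all 9050 genes. WT saline livers of day 1 and day 5 shared no batch. They were tied together only through batch 200803Eng, by its 4 day 1 and 3 month 10 livers, so this test rests on few livers. Without sex and batch as terms 432 genes were higher and 455 lower over all genes, against 22 and 17 with them. Igfbp2 and Socs2, 2 of the 10, were then called.

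Between week 10 and month 10 much of the profile moved, with 61.0% of genes in WT and 51.0% in Mgmt-/- saline livers called. The median gene rose by 0.36 and 0.18 on the log2 scale. Scaling to the same total raised these medians by a further 0.39 and 0.38. With the filter on low values raised to 20, the medians were -0.003 in WT and -0.009 in Mgmt-/- livers. By edgeR they were 0.06 and 0.04. The rise of the median gene thus depended on the filter and the tool. Changes are given above the median gene of the main fit, and values relative to it share that dependence. The log2 fold changes in parentheses are not relative to it. Igfbp4 was 238 to 329.9 with median 286 at week 10 and 638 to 1659 with median 1136 at month 10 in WT livers, and 605 to 1354 with median 670.2 and 782 to 1865 with median 1308 in Mgmt-/- livers. It rose in both genotypes, by 1.48 above the median gene in WT (log2 fold change 1.85, SE 0.18, adjusted p = 2.51e-13) and by 0.62 above it in Mgmt-/- mice (log2 fold change 0.81, SE 0.17, adjusted p = 8.7e-05). Igfbp3 and Prlr rose in both genotypes too, by 0.67 and 0.65 above the median gene in WT and by 0.86 and 0.79 in Mgmt-/- mice. In WT mice Igfbp2 rose, by 1.17 above the median gene (log2 fold change 1.53, SE 0.34, adjusted p = 0.000149) and Igfbp1 fell, at -2.07 relative to it (log2 fold change -1.70, SE 0.51, adjusted p = 0.0036). In all, 5 of the 10 were called in WT (39.8% of all genes higher, 21.2% lower) and 3 in Mgmt-/- mice (31.0% higher).

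The sexes were compared in adult Mgmt-/- livers, since all of them came from 1 batch and growth hormone secretion differs between adult males and females. In saline livers 4 of the 10 genes were higher in females and none was lower, where 2.28% of all genes were higher and 4.20% called in all. Prlr separated the sexes completely, at 479 to 1204 with median 695 (n = 11) in females and 52.9 to 337 with median 141 (n = 9) in males (log2 fold change 2.27, SE 0.21, adjusted p = 3.54e-09), 4.57-fold by the means. Socs2 was 36.7 to 186 with median 72.3 (n = 11) and 6.15 to 82.5 with median 25.5 (n = 9) (log2 fold change 1.63, SE 0.41, adjusted p = 0.0171). Igfals was 110.2 to 403 with median 278 (n = 11) and 93.9 to 229 with median 153 (n = 9) (log2 fold change 0.76, SE 0.20, adjusted p = 0.0245). Igfbp2 was 339 to 879 with median 695 (n = 11) and 248 to 801 with median 364 (n = 9) (log2 fold change 0.71, SE 0.20, adjusted p = 0.035). With both ages pooled the ranges of Socs2, Igfals and Igfbp2 overlapped between the sexes. Within month 10, Igfals at 255 to 385 in females and 124 to 229 in males did not overlap, nor did Igfbp2 at 518 to 863 and 248 to 483. Within week 10 all 3 overlapped, as did Socs2 at month 10. Without time as a term the count fell to 2: Igfals, at 0.81 (adjusted p = 0.0905), and Igfbp2, at 0.71 (adjusted p = 0.0905), were then not called. Ghr and Igf1 were not called, at -0.32 (SE 0.14, adjusted p = 0.241) and 0.36 (SE 0.14, adjusted p = 0.173). Igf1 ranges were apart at week 10, 4864 to 5759 in females and 2241 to 4039 in males, and overlapped at month 10, 2705 to 3188 and 2612 to 2962. Ghr overlapped at both ages.

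After NDMA, 2 of the 10 were higher in adult females (1.14% of all genes higher, 2.65% in all). Prlr was 189 to 864 with median 606 (n = 11) in females and 62.5 to 251 with median 78.8 (n = 10) in males (log2 fold change 2.28, SE 0.22, adjusted p = 3.87e-08). Within an age Prlr did not overlap, at 189 to 336 in females and 66.4 to 91.5 in males at week 10 and 457 to 864 and 62.5 to 251 at month 10. Igfals was 60.0 to 275 with median 209.5 (n = 11) and 56.9 to 168 with median 114 (n = 10) (log2 fold change 0.64, SE 0.15, adjusted p = 0.0131). Igfals was not called without time as a term, at 0.69 (adjusted p = 0.362). The difference between the sexes was itself tested against treatment, and none of the 10 genes was called by limma, edgeR or DESeq2 (0.349% of all genes called by limma). By limma 2 had an unadjusted p below 0.05, as did 1403 of all 10020 genes. Prlr had an interaction value of 0.01 (SE 0.31, adjusted p = 0.989) and Socs2 one of -1.27 (SE 0.57, adjusted p = 0.306). The Prlr value pooled ages that went opposite ways. By the means, females held 6.70-fold more Prlr than males after saline and 3.25-fold after NDMA at week 10. At month 10 they held 3.73-fold more after saline and 5.66-fold after NDMA. The interaction was not tested within an age. In Mgmt-/- saline pups none of the 10 was called between the sexes by limma, edgeR or DESeq2 (0.0523% of all genes called by limma). By limma none had an unadjusted p below 0.05, where 578 of all 9556 genes did. Prlr in these pups was 244 to 591 with median 423 (n = 13) in females and 162 to 546 with median 404 (n = 12) in males.

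In WT adults sex and batch coincided in most libraries, so values are given without a test. Of the WT saline adults, 8 of 10 females came from batch 200724Eng and 7 of 8 males from batch 200710Eng, and the others came from batch 200803Eng, so that sex and batch were largely the same. Prlr was 362 to 884 with median 673 (n = 10) in females and 63.6 to 335 with median 189.7 (n = 8) in males after saline. After NDMA it was 473 to 1088 with median 806 (n = 10) and 103 to 231 with median 138 (n = 11). The ranges of the sexes did not overlap in either WT group. Within batch 200803Eng, which held both sexes at month 10, Prlr was 835 to 837 (n = 2) in females and 335 (n = 1) in males after saline. After NDMA it was 569.6 to 974 (n = 2) and 135 to 224 (n = 3) there, so the order of the sexes was the same.

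**Figure D4:**
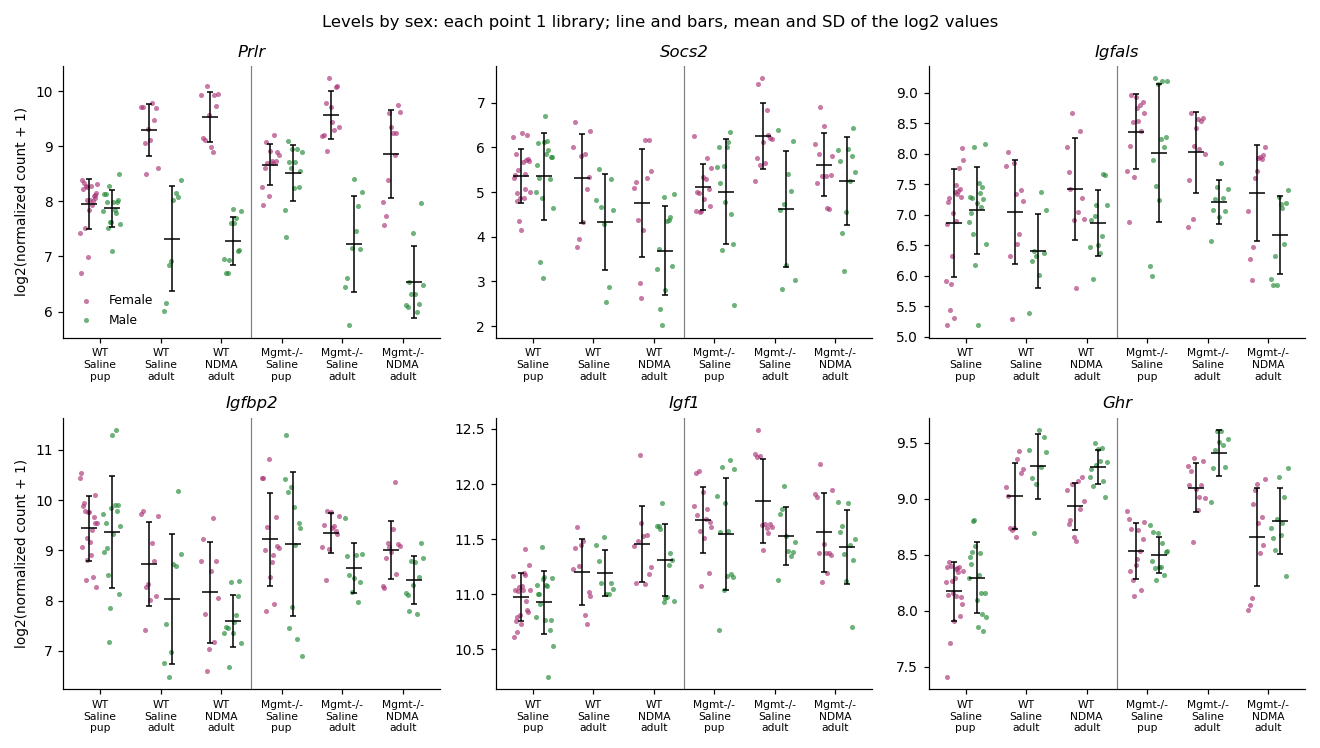
The 6 panels plot Prlr, Socs2, Igfals, Igfbp2, Igf1 and Ghr by sex, with genotype, treatment and age group on the x axis and log2(normalized count + 1) on the y axis; each point is 1 library and lines with bars are the mean and SD of the log2 values. Female Prlr points lie above the male points in WT adults and in Mgmt-/- saline adults; in Mgmt-/- NDMA adults, with both ages pooled, the ranges of 189 to 864 and 62.5 to 251 overlap, as they do in saline pups, while within week 10 and within month 10 the sexes do not overlap.

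Other genes of the pathway were counted from a list of 16 signal transducers and regulators of the GH receptor. In Mgmt-/- mice 17.7%, 19.9%, 17.8%, 11.2% and 7.74% of all genes were called in either direction at the 5 times. In Mgmt-/- pups, 15 were tested at day 1 and 1 fell, Stat5a at -1.13 (SE 0.25, adjusted p = 0.000525). At day 2, 14 were tested, 2 rose and 2 fell. Stat5b, the main STAT5 of liver, was among those that fell, at -1.07 (SE 0.23, adjusted p = 0.00106), with Stat5a at -0.69 (SE 0.23, adjusted p = 0.0227). The phosphatases Ptpn1 and Ptpn6, which act against JAK kinases, were those that rose, at 0.91 (SE 0.17, adjusted p = 0.000174) and 0.91 (SE 0.20, adjusted p = 0.00142). At day 5, 13 were tested; Stat5b was lower at -0.76 (SE 0.25, adjusted p = 0.0287) and Ptpn1 higher at 0.72 (SE 0.21, adjusted p = 0.0137). None of 14 was called at week 10, and at month 10 the adaptor Sh2b1 fell, at -0.71 (SE 0.19, adjusted p = 0.0163), alone among 14. The medians of this list were -0.03, -0.10, -0.11, -0.11 and -0.10 at the 5 times; the medians of all genes at the later 2 were 0.04 and -0.01. In WT mice at day 1, 1 of 14 was lower (4.19% of all genes).

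Of 12 further IGF ligands, receptors and binding proteins, 7 were tested in Mgmt-/- mice at day 1 and 3 fell (8.64% of all genes lower). These were Igf1r, the IGF1 receptor, at -1.02 (SE 0.37, adjusted p = 0.0382), and the binding proteins Igfbp5 at -0.88 (SE 0.30, adjusted p = 0.0268) and Igfbp7 at -0.59 (SE 0.16, adjusted p = 0.00396). None was called at day 2 (6 tested; 19.9% of all genes) or day 5 (5 tested; 17.8%). At week 10 Igfbp7 was higher, at 0.62 (SE 0.16, adjusted p = 0.0113) (5 tested; 7.27% of all genes higher), and at month 10 Igfbp5 was lower, at -1.28 (SE 0.38, adjusted p = 0.0286) (6 tested; 2.99% of all genes lower). In saline livers Igf2, the fetal IGF, was lower in adults than in pups, at -3.48 (SE 0.36, adjusted p = 1.05e-11) in WT and -4.60 (SE 0.85, adjusted p = 5.34e-05) in Mgmt-/- mice. Igf2 had already fallen between day 1 and day 5, at -5.08 (SE 0.93, adjusted p = 0.00675) and -4.21 (SE 0.73, adjusted p = 0.000489). The WT value between these days has the limit given above, since WT livers of day 1 and day 5 shared no batch. Grb10, an imprinted inhibitor of insulin and IGF receptors, fell with age, at -2.53 (SE 0.25, adjusted p = 3.49e-13) in WT and -2.17 (SE 0.42, adjusted p = 6.16e-05) in Mgmt-/- mice, and Insr, the insulin receptor, rose, at 1.0 (SE 0.16, adjusted p = 3.49e-07) and 1.25 (SE 0.33, adjusted p = 0.00293).

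Transcription factors that act on GH-responsive liver genes were counted next. At day 1, 9 of 10 were tested in Mgmt-/- mice and 2 were called, beside 17.7% of all genes; Onecut1 rose at 1.01 (SE 0.28, adjusted p = 0.00873) and Tox fell at -0.92 (SE 0.23, adjusted p = 0.0021). None of 8 was called at day 2 (19.9% of all genes) or at week 10 (11.2%). Cebpb, of 8 tested, rose at day 5 (17.8% of all genes called), at 0.93 (SE 0.33, adjusted p = 0.0442), and Tox, of 10 tested, fell at month 10 (7.74%), at -0.91 (SE 0.24, adjusted p = 0.0147). With so few genes the counts were not set apart from those shares.

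Liver genes whose sex bias depends on growth hormone were followed as 2 lists. Of 18 female-biased genes, 15 were tested at day 1 in Mgmt-/- pups, 9 fell and 2 rose (median -1.02; 17.7% of all genes called, 8.64% lower). Sult2a1, a sulfotransferase, was at -2.22 (SE 0.19, adjusted p = 1.22e-10) and Hao2, a peroxisomal oxidase, at -2.09 (SE 0.23, adjusted p = 9.06e-08), while Cyp2a4, a steroid hydroxylase, rose at 2.46 (SE 0.23, adjusted p = 1.51e-10). At day 2, 6 of 15 fell and 1 rose (median -0.93; 19.9% of all genes called, 7.50% lower), and at day 5, 8 of 15 fell and 1 rose (median -0.69; 17.8% called, 6.71% lower). Hao2 fell at both times, at -2.28 (SE 0.22, adjusted p = 4.25e-07) and -3.14 (SE 0.24, adjusted p = 6.2e-08). At week 10, 2 of 15 fell and 2 rose (11.2% of all genes called), and at month 10, 9 of 16 fell and 2 rose (7.74% called), with medians of -0.29 and -0.84. Cyp2a4 and the Cyp3a and Cyp2b genes have close paralogs, and reads may be shared among them.

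Of 15 male-biased genes, 7 were tested at day 1, with 2 higher and 1 lower (17.7% of all genes called), and 8 at days 2 and 5, with 2 higher at each time and 2 and 3 lower (19.9% and 17.8% called). Mup20, a major urinary protein with near-identical relatives, rose at every time, with values of 3.10 (SE 0.52, adjusted p = 0.000112) on day 1, 4.07 (SE 0.38, adjusted p = 1.86e-06) on day 5 and 2.08 (SE 0.31, adjusted p = 5.73e-05) in month 10. Hsd3b5, a steroid dehydrogenase typical of the male liver, fell at -2.77 (SE 0.49, adjusted p = 9.26e-05) 2 days after dosing and -4.44 (SE 0.54, adjusted p = 1.16e-05) in week 10. Slco1a1, an organic anion transporter, fell at -4.15 (SE 0.40, adjusted p = 4.3e-07) at week 10. All 15 were tested in adults: 2 rose and 4 fell at week 10 (11.2% of all genes called), and 7 rose and 1 fell at month 10 (7.74% called), with medians of 0.04 and 0.94. These adult groups held both sexes, and sex was a term of the fit.

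Between the sexes the same lists split in adult Mgmt-/- saline livers: 15 of 15 male-biased genes were lower in females (median -3.68) and 14 of 15 tested female-biased genes were higher (median 4.38), where 4.20% of all genes were called and 2.28% higher. The lists were chosen for their sex bias, so this split is a check of the lists and the sex labels. Cux2, a repressor typical of the female liver, was higher in females at 4.12 (SE 0.35, adjusted p = 8.26e-10). After NDMA the Cux2 value was 2.63 (SE 0.47, adjusted p = 0.000745). The sex difference changed with treatment (0.349% of all genes called) for 4 female-biased genes, each smaller after NDMA, among them Sult3a1 at -4.31 (SE 0.81, adjusted p = 0.00573) and Cyp3a44 at -3.50 (SE 0.61, adjusted p = 0.00248), and for the male-biased Nat8 at 2.01 (SE 0.36, adjusted p = 0.00248).

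Fasting and FOXO1 genes were counted beside Igfbp1, which fasting induces. Of 10 listed, 2 of 10 tested rose on day 1 in Mgmt-/- pups (17.7% of all genes called), 1 of 8 on day 2 (19.9%), 2 of 8 on day 5 (17.8%, with 11.1% higher) and 2 of 9 in week 10 (11.2%, with 7.27% higher), and none fell at those times. Fgf21, a fasting hormone of the liver, rose at all 4, at 1.69 (SE 0.38, adjusted p = 0.000959), 0.99 (SE 0.31, adjusted p = 0.0187), 2.58 (SE 0.35, adjusted p = 1.44e-05) and 2.30 (SE 0.50, adjusted p = 0.00262). Pdk4, which spares glucose by inhibiting pyruvate dehydrogenase, rose at week 10 beside Igfbp1, at 2.63 (SE 0.46, adjusted p = 0.000299). The medians of the list were -0.08, -0.25, 0.33 and -0.06, and the other genes of the list, among them Pck1 and G6pc of gluconeogenesis, were not called, apart from Angptl4 at 0.77 (SE 0.21, adjusted p = 0.00705) on day 1 and 0.63 (SE 0.17, adjusted p = 0.00971) on day 5. At month 10 none of 10 was called (7.74% of all genes).

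The genes whose levels most resembled Igf1 were found over the 10 group means within each genotype, ranking 7293 genes by the lower of the 2 genotype values of Pearson's r. Haao, of tryptophan breakdown, had r of 0.88 in WT and 0.91 in Mgmt-/- mice. Pmvk, a kinase of sterol synthesis, had 0.87 and 0.90, and Car3, a carbonic anhydrase, 0.86 and 0.89. Among the other 9 genes of the axis, Ghr had 0.69 and 0.87, Prlr 0.32 and 0.62 and Igfals 0.27 and 0.68. In WT the remaining 6 had values below 0. Igfbp2 had -0.88 and -0.36 and Igfbp1 -0.61 and -0.57, negative in both genotypes, while Socs2 with -0.61 and 0.82, Igfbp3 with -0.56 and 0.61, Cish with -0.48 and 0.54 and Igfbp4 with -0.13 and 0.44 were negative in WT and positive in Mgmt-/- mice. These values describe 10 group means, and groups share ages and batches.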

How the data were processed

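The authors aligned 3′ tag reads with STAR to GRCm38 (mm10), used ESAT for gene counts, and normalized each genotype on its own with DESeq2 size factors; tool versions and the gene annotation are not given in the sources used here. The deposited values are therefore normalized counts, a signal with 1 factor per library. Whole reads could be recovered in 209 of 213 libraries (100.0% of their values within 0.1 of a whole read); 1 labelled sample without a column was not analysed. Precision follows depth, and 4 WT libraries held under 300000 reads. Nothing in the labels says that 2 samples share a mouse, and p-values measure the spread between the samples. According to the paper, treatment was assigned by litter. Litter is not in the labels and could not be a term, so likeness within a litter is not accounted for in the p-values.

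From these values, limma 3.58.1 (trend and robust, R 4.3.3) was fitted to log2(normalized count + 1) of all genes with a mean of at least 5, with sex and batch as terms, two-sided, with Benjamini-Hochberg adjustment over the genes tested. A call needed an adjusted p below 0.05 and an absolute log2 fold change above 0.58. The adult sex contrasts had time as a term. Differences between genotypes used edgeR 4.0.16 (quasi-likelihood, TMM) on recovered reads, where the call was the adjusted p alone. Alternatives were other pseudocounts and filters, no covariates, the same total per library, single batches, all columns, edgeR and DESeq2 1.42.0; some were added after the data were seen. The tests were checked on simulated data.

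The 10 genes and the other lists were chosen with earlier results of these data known. Of each other list, up to 3 called genes with the highest and up to 3 with the lowest log2 fold change could be named. Coordinates are GENCODE vM21 (GRCm38); promoters are from RefSeq. Summaries used Python 3.11.15 with pandas 2.3.3 and numpy 2.4.6; figures used matplotlib 3.10.9.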

Additional observations from a re-analysis of the deposited data

Results flagged for a closer look

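A library was set apart where its gap to the nearest library of its group exceeded Dixon's critical value at 95%. Of 130 gene and group pairs tested, 20 (15.4%) met this. Chance gives about 5% for independent values with a normal distribution. The values here were normalized counts without the log2 scale, and the same libraries served several genes. The share was therefore not read as an excess over chance. These pairs came from groups of 10 or fewer libraries, and larger groups were not tested. In such larger groups Igfbp1 reached 1411 (next 428) at WT NDMA day 1 and 515 (next 178.5) at Mgmt-/- NDMA month 10. The WT NDMA day 2 library D215006 held Igfals at 126 (next 58.8) and Igfbp4 at 73.6 (next 269.9). The WT NDMA week 10 library D215022 held Igf1 at 4908, Igfals at 404 and Igfbp1 at 144. In the WT NDMA day 5 library D215014 Igfbp4 was 73.8. These 3 libraries held 150038, 270673 and 202626 reads, under the 300000 used as a limit, and the part of depth in their values was not tested.

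Among other WT libraries, Igfbp1 was 304.1 in D202014 (NDMA day 5), Igfbp2 was 384 in D215024 (NDMA week 10), Igfals was 42.5 in D215004 (saline day 2) and Igfals was 274 in D202010 (saline day 5). Among Mgmt-/- livers given NDMA, Igf1 was 669 in D389077 at day 2 (next 1549) and Igfals was 133 in D209029 at week 10. Among Mgmt-/- saline livers, Igfbp1 was 1018 and Igfbp2 was 1811 in D389023 at day 2, and Igfbp3 was 52.5 and Igfbp4 was 701 in D389035 at the same time. Prlr was 591 in D389036 at day 5. At week 10, Igfals was 403 and Socs2 was 171 in D209027, and Igfbp4 was 1354 in D209001.

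By edgeR's interaction test the response to NDMA differed between WT and Mgmt-/- libraries for 3 genes at day 2 (Igf1 -0.97, Ghr -0.87, Prlr -0.80), 4 at day 5 (Igf1 -1.23, Ghr -1.10, Igfbp3 -1.63, Prlr -1.44) and 3 at week 10 (Igfals -1.57, Ghr -0.79, Prlr -1.19). The genotypes shared no batch at these times, and the part of batch cannot be told apart. In the pair of kidney-marked libraries left out of the saline day 5 group, Igfbp3 was 141.9 and 175, against at most 69.8 in the 6 libraries used.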

How the results depend on the processing

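Over the alternatives run, 208 of 224 counts of called genes stayed within 1.5 times the value reported, and 2146 of 2228 values of single genes kept their direction and side of the threshold, 43 lost a call, 37 gained one and 2 reversed. With the pair of kidney-marked libraries kept, 3 of the 10 genes were called at Mgmt-/- day 5 (8 as reported; Ghr, Igf1, Igfals, Igfbp2 and Socs2 lost), Igf1 reversed to 0.076 and the genotype difference at day 5 held 2 genes (4 as reported). Without sex and batch as terms, counts became 0 for Mgmt-/- month 10, 2 for WT saline day 5 against day 1, 5 for Mgmt-/- saline adults against pups (where Igfals reversed to -0.78) and 0 for the genotype difference at week 10. Without time as a term they became 2 for the adult saline sexes (4 as reported; Igfals and Igfbp2 lost) and 1 for the adult NDMA sexes (2 as reported; Igfals lost). Scaled to the same total, counts became 2 for Mgmt-/- week 10 and 0 for month 10. Without a fold threshold they became 2 for Mgmt-/- month 10 and 5 for Mgmt-/- saline month 10 against week 10. Other counts that moved were WT day 5 (1 with DESeq2 and 1 without libraries under 300000 reads), WT day 2 (0 without the libraries whose reads were not recovered, a setting added after the data were seen) and Mgmt-/- adults against pups (4 within batch 200803Eng). The cause of these shifts was not tested. Groups held 6 or more livers, so no single library was left out in turn. No paired analysis was possible because the replicate names are unique and pair no mice.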

Other observations

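The pair of kidney-marked libraries labelled Mgmt-/- saline day 5 held Igf1 at 93.6 and 104.6, Igfals at 47.9 and 34.3 and Ghr at 92.2 and 82.2 normalized counts. Prlr was 337 and 304 in them, and Igfbp2 was 5.28 and 2.72. These values entered no comparison other than the alternative that kept all columns.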
